A study of Mus musculus with 8 samples.

Results

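Esrrb, Nr5a2 and Nr0b1 are 3 genes for orphan nuclear receptors, and the accessible regions in and around them were described here in mouse induced pluripotent stem cells. The genes were taken by name from the 21887 protein-coding genes of the build GRCm38 (mm10). A region was taken if at least 1 bp of it fell in a gene or within 100 kb of either side, which gave 36 of the 76872 regions in the deposited list. Of these, 18 belonged to Esrrb, 13 to Nr5a2 and 5 to Nr0b1.

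The series used ATAC-seq, in which the Tn5 transposase cuts and tags open DNA, on clonal FUCCI2 cells, whose fluorescent reporters follow the cell cycle. All cells grew on irradiated feeders in KO-DMEM with FBS, LIF and inhibitors of MEK and GSK3. Cells arrested for 6 h in nocodazole at 200 ng/ml, a drug that blocks the spindle, were shaken off in mitosis. They were taken at once or 1 h and 3 h after release into fresh medium, and untreated asynchronous cells made up the last group. Each of the 4 groups had 2 libraries of 50000 cells. The line is a single clone, the RNA or marker content of the cells was not measured in these data, and the labels do not say how the replicates were grown. The list has a position for each region and no value per library, so the depth is unknown. The positions below hold for the series as a whole. They do not show which regions were open in arrested, released or asynchronous cells, so a region that stayed open through mitosis cannot be picked out.

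Nuclear receptors are transcription factors that share a zinc finger DNA-binding domain and a ligand-binding domain. They are called orphans when no natural ligand was known as they were found. Esrrb (estrogen related receptor beta) and Nr5a2 (LRH-1) bind DNA as single molecules at a nuclear receptor hexamer extended on its 5′ side. Both act in the naive pluripotency network, where Esrrb is a known target of GSK3 inhibition through the repressor Tcf7l1, and both are known from other work to stay on mitotic chromosomes at some sites. Nr0b1 (DAX1) lacks the zinc fingers. It acts mainly as a corepressor, bound to other receptors such as those of the Nr5a family.

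The 3 genes differed in where their regions lay. Esrrb had 16 of its 18 regions inside the gene, none at either end of it and none in the 100 kb before it. Nr5a2 had a compact set of 5 regions at an inner start and 2 others far along the gene. Nr0b1 had 4 regions packed into the first part of a short gene.

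The reference lists 5 starts for the 3 genes, and the DNA before each is shown because the presence of a region divided them. Regions covered the DNA before Nr0b1 and before the inner start of Nr5a2, and not that before the outer start of Nr5a2 or either start of Esrrb. Each sequence is the 250 bases before the start, 5′ to 3′ along the gene, from RefSeq on GRCm38.p6. Capitals mark matches to the motifs searched, which are named further on.
Esrrb outer start, chr12:86360867-86361116, plus strand, no base in a region: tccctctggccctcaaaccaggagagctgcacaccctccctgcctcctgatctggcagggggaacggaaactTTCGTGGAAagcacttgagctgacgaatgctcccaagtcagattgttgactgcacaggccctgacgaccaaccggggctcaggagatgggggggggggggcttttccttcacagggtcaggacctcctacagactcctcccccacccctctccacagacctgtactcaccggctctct
Esrrb inner start, chr12:86421394-86421643, plus strand, no base in a region: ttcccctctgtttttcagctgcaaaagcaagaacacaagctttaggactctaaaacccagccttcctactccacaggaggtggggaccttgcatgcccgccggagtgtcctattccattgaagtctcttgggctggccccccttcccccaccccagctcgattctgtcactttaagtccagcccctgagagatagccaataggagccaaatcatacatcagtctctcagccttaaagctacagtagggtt
Nr5a2 outer start, chr1:136960449-136960698, minus strand, no base in a region: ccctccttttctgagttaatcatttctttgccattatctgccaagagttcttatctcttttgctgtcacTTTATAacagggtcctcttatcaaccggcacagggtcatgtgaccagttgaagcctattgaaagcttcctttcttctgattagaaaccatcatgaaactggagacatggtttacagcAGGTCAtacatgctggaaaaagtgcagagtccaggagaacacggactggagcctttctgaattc
Nr5a2 inner start, chr1:136953631-136953880, minus strand, all 250 bases in a region: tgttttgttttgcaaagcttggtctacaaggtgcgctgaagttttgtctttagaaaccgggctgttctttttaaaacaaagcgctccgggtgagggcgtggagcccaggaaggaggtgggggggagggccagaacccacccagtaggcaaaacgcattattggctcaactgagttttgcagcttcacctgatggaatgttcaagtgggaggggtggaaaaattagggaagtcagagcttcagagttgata
Nr0b1 start, chrX:86191525-86191774, plus strand, all 250 bases in a region: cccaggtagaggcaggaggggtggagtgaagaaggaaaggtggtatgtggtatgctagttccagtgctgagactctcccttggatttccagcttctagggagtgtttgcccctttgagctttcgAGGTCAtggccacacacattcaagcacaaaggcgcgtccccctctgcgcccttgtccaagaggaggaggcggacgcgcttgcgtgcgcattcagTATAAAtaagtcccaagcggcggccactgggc

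**Figure D1:**
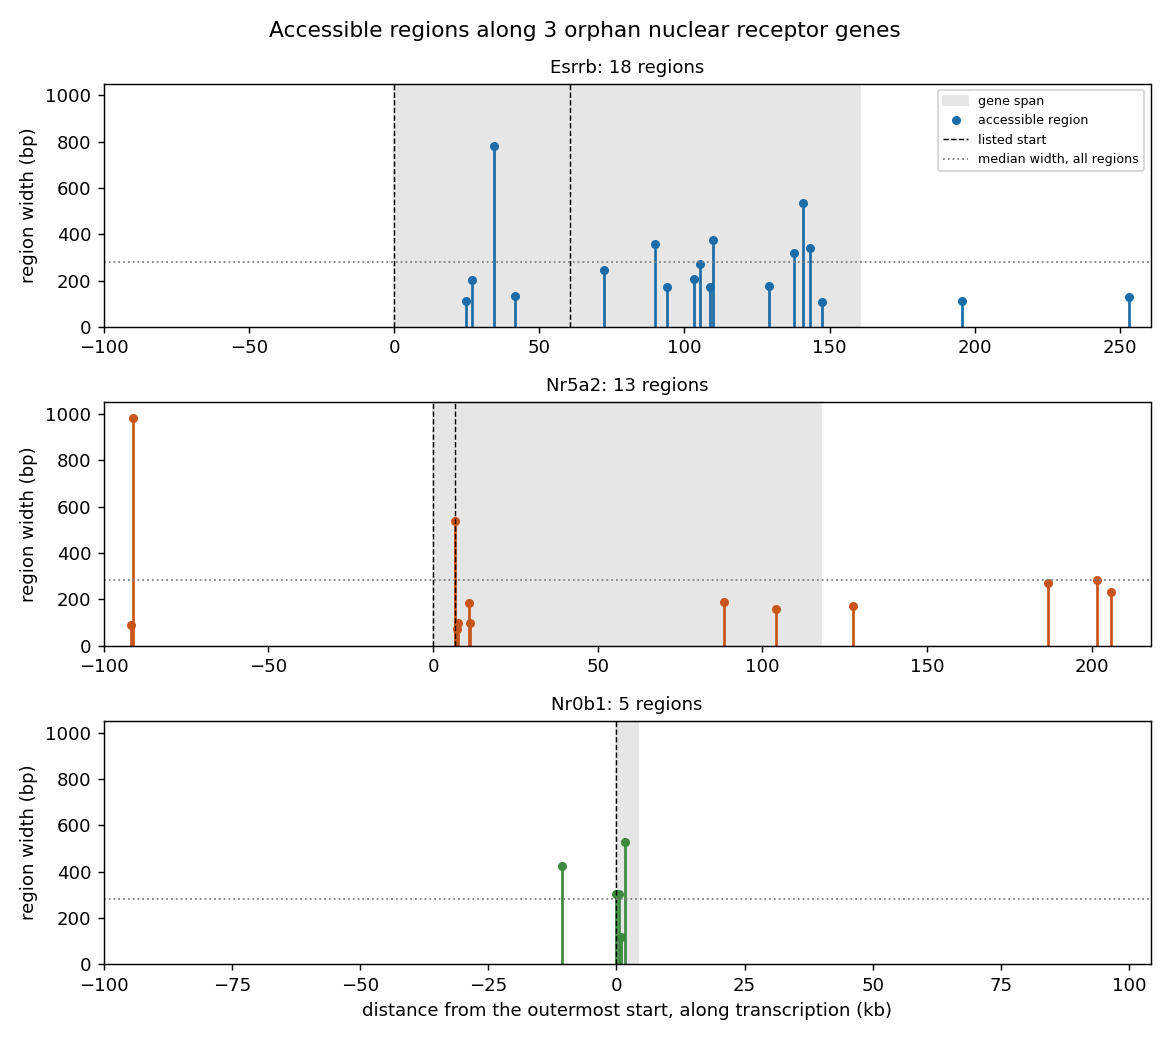
Width in bp of each accessible region (points with stems) against its distance in kb from the outermost start along transcription, for Esrrb, Nr5a2 and Nr0b1. Grey is the gene, dashed lines are the listed starts and the dotted line is the median width of all regions, 281 bp. The 16 inner regions of Esrrb spread over the gene, 5 of Nr5a2 crowd at its inner start, and 4 of Nr0b1 crowd at its start.

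Esrrb lies on chromosome 12, from 86361117 to 86521628 on the plus strand, and is 160.5 kb long. Its outer start had no region nearby. The nearest one began 24.8 kb into the gene, and in the other direction the nearest lay 119 kb away, at chr12:86241607-86241960, where it touched the next gene, Gpatch2l. The lncRNA gene Gm40483 overlaps the outer start of Esrrb and had no region either. The inner start, 60.5 kb into the gene (37.7% of its length), lay in the largest gap between the regions of the gene. This gap ran for 30.3 kb, from 86402992 to 86433312, and the nearest region lay 11.7 kb past the inner start.

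The regions of Esrrb formed 6 groups, with gaps of at most 9121 bp within a group and of at least 17221 bp between groups, and 3 of them held 15 of the 16 regions in the gene. The first group lay between the 2 listed starts and held 4 regions over 17.1 kb, of 111, 201, 779 and 133 bp. The region of 779 bp, at chr12:86395209-86395987, was the widest of Esrrb and wider than 90.5% of all regions in the list. It lay 34.48 kb into the gene. A lone region of 246 bp followed at 45.1% of the gene length.

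The next 2 groups of Esrrb held most of its other regions. The earlier one had 6 regions in 20.6 kb, at 56.0 to 68.6% of the gene, with widths of 357, 174, 206, 271, 173 and 375 bp. The last 2 of them were 812 bp apart, the closest spacing in the gene. The later one had 5 regions in 18.4 kb, at 80.4 to 91.8% of the gene, with widths of 175, 318, 534, 339 and 106 bp. The region of 534 bp, at chr12:86501575-86502108, was the second widest of the gene. After the last inner region, 48086 bp passed without a region. The 2 regions behind the gene, of 111 and 127 bp, stood alone at 35.1 and 92.68 kb from its far end. Vash1 was the nearest protein-coding gene to the second of these, at 64325 bp.

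Few genes of the size of Esrrb held as many regions. Among 2618 protein-coding genes of 0.5 to 2 times its length, 97.1% had fewer regions touching the gene, 62 had more, and the median was 4 (quartiles 2 and 7). Its flanks held fewer regions than the median by the same measure. No region lay in the 100 kb before the gene, where the median of 2029 such genes with a listed start was 4. In the 100 kb after it lay 2, against a median of 4 and a lower quartile of 2, and 20.5% of those genes had fewer. An empty flank before the gene was found in 4.73% of those genes and in 7.15% of the 17492 genes of any length with a listed start. A full gene and flanks under the median together gave 4.99 regions per 100 kb of the whole extended window. This exceeded 70.9% of the genes of like length, and the 9.97 per 100 kb of the gene alone exceeded 96.5%. By the bp that regions covered in the extended window, Esrrb exceeded 47.2% of them.

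**Figure D2:**
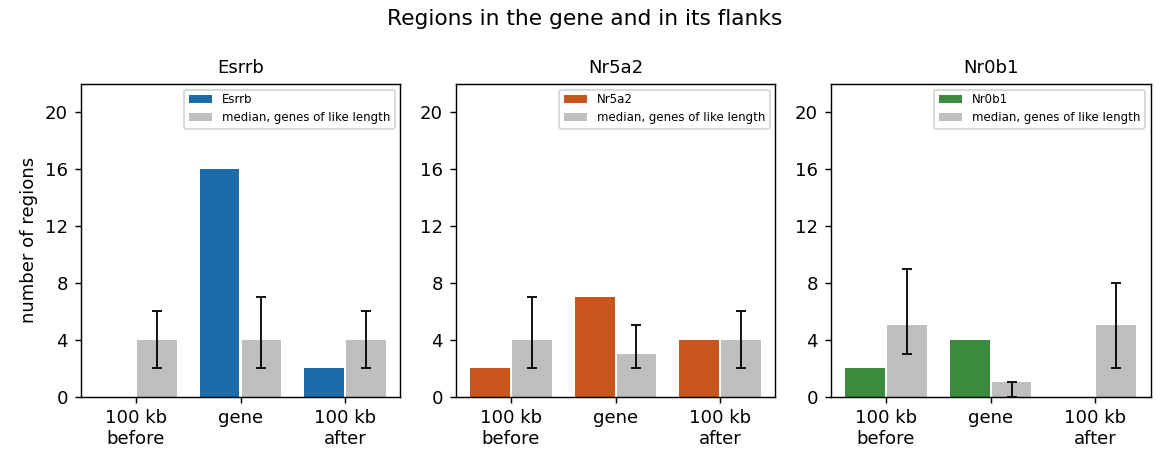
Number of regions in the 100 kb before the gene, touching the gene and in the 100 kb after it, for each gene (coloured bars) and as the median of protein-coding genes of 0.5 to 2 times its length (grey bars, with whiskers for the quartiles). Esrrb shows 0, 16 and 2 against medians of 4, 4 and 4. The region across the start of Nr0b1 is counted in the gene and in the flank before it.

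Nr5a2 lies on chromosome 1, from 136842562 to 136960448 on the minus strand, and is 117.9 kb long. Its outer start, like that of Esrrb, had no region within 1 kb, and the nearest was 6.40 kb away. The inner start, 6.82 kb into the gene (5.78% of its length), lay inside the widest region of the gene, 536 bp at chr1:136953515-136954050. All 300 bases from 250 before to 50 after this start were in the region. Of 2761 protein-coding genes with several listed starts, 8.98% shared this arrangement of a region within 1 kb of a later start and none within 1 kb of the outermost. Esrrb, with a region at neither of its 2 starts, was among another 19.2%.

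At the inner start of Nr5a2, 5 regions lay within 4.92 kb. The region over the start was followed by one of 73 bp, the smallest width in the list, after a gap of 327 bp, and by one of 99 bp after a further 205 bp. A close couple of 182 and 97 bp lay 3.99 and 4.40 kb past the start, 229 bp apart. The rest of the gene was nearly empty. A gap of 77.1 kb, or 65.4% of the gene, separated this set from the next region, and 88.4% of the gaps between neighbouring regions in the list were shorter. Beyond it, regions of 187 and 157 bp lay at 75.1 and 88.3% of the gene.

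Outside Nr5a2, the widest region of all 36 stood far in front of the gene. It measured 983 bp at chr1:137050969-137051951, wider than 96.0% of all regions, and lay 90.5 kb before the outer start with a neighbour of 90 bp only 213 bp further on. The next protein-coding gene on that side, Ptprc, was 1100 kb from Nr5a2. Behind the gene were 4 regions, of 172, 272, 282 and 230 bp, at 9.575, 68.77, 83.57 and 88.12 kb from its far end. Nr5a2 was the nearest protein-coding gene to all 13 of its regions. The 4 pseudogenes in the window, Gm8762, Gm29718, Gm17781 and Rnu7-ps3, had none.

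The count for Nr5a2 was above the middle of genes of its size in the gene and not around it. Of 3455 protein-coding genes of 0.5 to 2 times its length, 81.2% had fewer than its 7 regions, against a median of 3 (quartiles 2 and 5). The 2 regions before and 4 after the gene compared with medians of 4 and 4 in 2699 such genes with a listed start. Per 100 kb of the extended window, its 4.09 regions were close to the median of 4.01. By the bp that regions covered there, Nr5a2 exceeded 29.0% of these genes, against 51.3% by the number of regions.

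Nr0b1 lies on the X chromosome, from 86191775 to 86195947 on the plus strand, and is 4.173 kb long. The first region, of 305 bp at chrX:86191501-86191805, covered the start and 281 of the 300 bases around it. Inside the gene followed regions of 305, 119 and 528 bp, separated by gaps of 247, 292 and 484 bp. The last of these, at chrX:86193253-86193780, was the widest of the gene and lay at 41.7% of its length. Regions covered 983 bp of the gene, or 23.6%, against 2.80% of Esrrb and 1.13% of Nr5a2. The far end had no region.

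The surroundings of Nr0b1 were nearly empty. A region of 422 bp at chrX:86180942-86181363 lay 10.4 kb before the start, and none lay in the 100 kb after the gene, where the nearest was 178 kb away. Mageb4, the other protein-coding gene in the window, 54.3 kb away, had no region at either end or inside. Of the 4 regions touching Nr0b1, 3 had at least 50% of their length in the gene. Among 4448 protein-coding genes of 0.5 to 2 times the length of Nr0b1, 99.6% had fewer regions touching the gene, with a median of 1. By contrast 80.9% had a higher density over the extended window, 2.45 regions per 100 kb for Nr0b1 against a median of 5.43. Among genes of like length on the X chromosome alone, 55.5% had a lower density than Nr0b1.

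**Figure D3:**
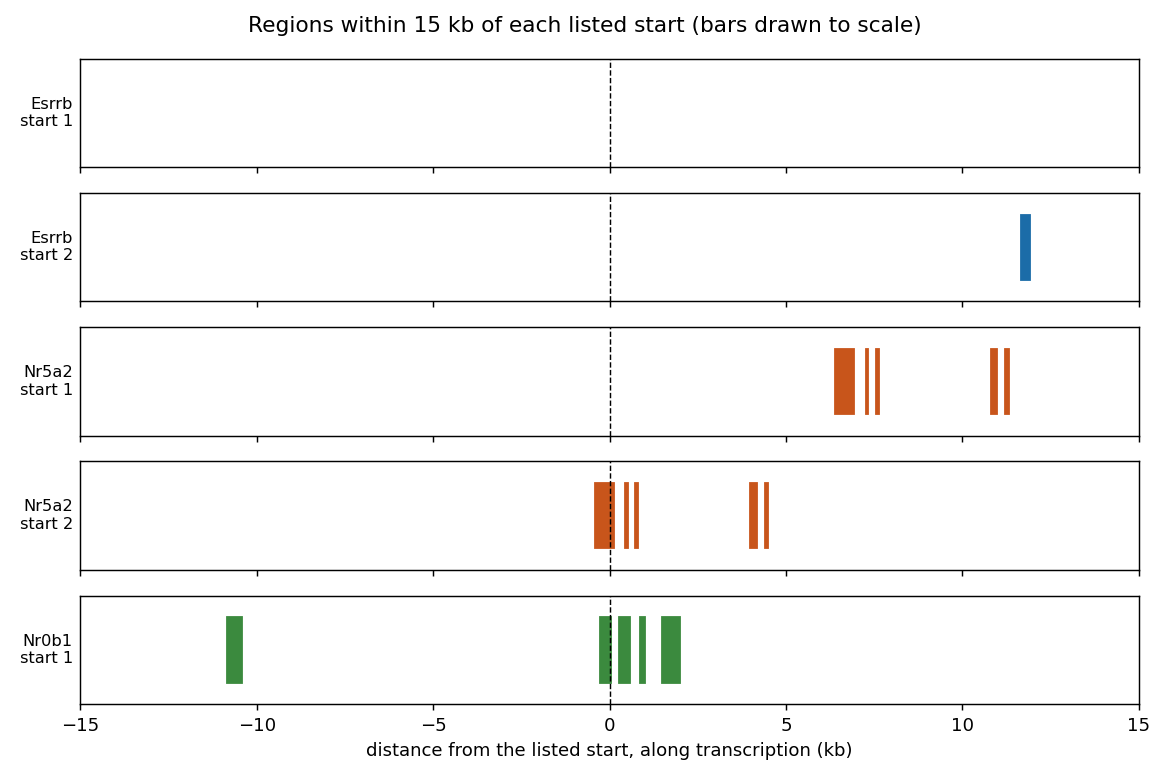
Regions within 15 kb of each of the 5 listed starts, drawn to scale along transcription (kb), with the start as a dashed line. The inner start of Nr5a2 and the start of Nr0b1 lie in a region followed by further regions, whereas the nearest region to either start of Esrrb is at 11.7 kb or more.

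By the outer ends alone, 1 of the 3 genes had a region within 1 kb, Nr0b1 with 3 such regions, all at its start. Over all protein-coding genes the share was 62.0%. Genes with regions inside and none at an outer end, as Esrrb and Nr5a2, made up 11.6%. The share was 1.01% with at least 7 regions inside and 0.164% (36 genes) with at least 16, limits that were set at the counts of Nr5a2 and Esrrb. Counting every listed start, as was decided after the data were seen, moved Nr5a2 out of this class and left Esrrb in it. Of the 17492 genes with a listed start, 0.103% (18 genes) had at least 16 regions inside and none within 1 kb of any listed start. None of these shares allowed for gene length. The median length of all protein-coding genes was 17.2 kb, against 160.5 kb for Esrrb and 117.9 kb for Nr5a2.

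The base composition of the start windows, from 250 before to 50 after each start, was compared with the same windows of other genes. Of 21263 windows of protein-coding genes, 54.8% touched a region and 30.5% lay wholly in one, against 2 and 1 of the 5 windows here. The ratio of observed to expected CpG, which is high in CpG islands, was 0.551 at Nr0b1 and 0.412 at the inner start of Nr5a2. It was lower at the 3 windows with no region, at 0.266 and 0.318 for the outer and inner starts of Esrrb and 0.152 for the outer start of Nr5a2. All 5 values were under the median of 0.781 for windows touching a region, and the median for other windows was 0.215. Among windows within 0.1 of each ratio, 70.4% touched a region for Nr0b1, 41.5% for the inner and 7.34% for the outer start of Nr5a2, and 17.6 and 24.9% for the outer and inner starts of Esrrb.

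**Figure D4:**
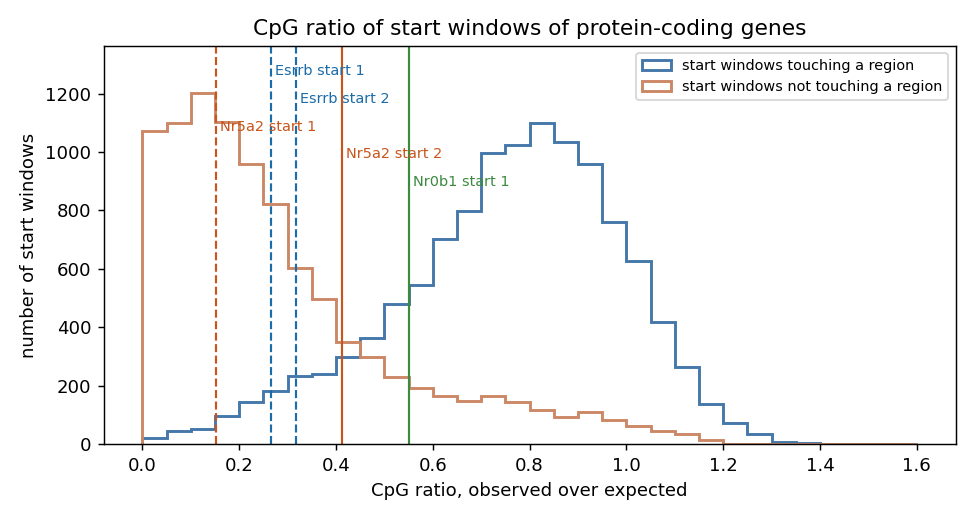
Histogram of the CpG ratio (observed over expected) in start windows of protein-coding genes that touch a region or do not, with the 5 windows of Esrrb, Nr5a2 and Nr0b1 as vertical lines (solid where a region was touched, dashed otherwise). The 2 solid lines, at 0.412 and 0.551, lie to the right of the 3 dashed ones and left of the peak of windows touching a region.

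The start windows were also searched for motifs, most of which occur in few start windows of any gene. The search, on both strands, used AAGGTCA and TCAAGGTCA, which holds the former and is the extended hexamer that Esrrb and Nr5a2 bind, ATGCAAAT for octamer factors, CATTGTT for SOX factors, GGGCGG for GC boxes, GGGTGTGG for KLF factors, CTTTGAT for TCF factors, TTCNNNGAA for STAT factors and TATAAA for the TATA box. AAGGTCA was in none of the 5 windows and in 4.08% of all windows, and TCAAGGTCA in none and in 0.334%. GGGCGG was in none of the 5. It was in 46.2% of all windows, in 69.1% of those touching a region and in 18.5% of those touching none. ATGCAAAT, CATTGTT, GGGTGTGG and CTTTGAT were also in none, with shares of 1.66, 3.25, 3.63 and 3.22% over all windows.

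TATAAA lay 32 bases before the start of Nr0b1, inside the region, and on the opposite strand 181 bases before the outer start of Nr5a2, outside any region. It was in 12.6% of all windows, in 5.82% of those touching a region and in 20.8% of those touching none. TTCNNNGAA matched once, 178 bases before the outer start of Esrrb, and was in 7.69% of all windows. The plain hexamer AGGTCA, the last 6 bases of AAGGTCA and TCAAGGTCA, was added after the sequences were seen. It lay 126 bases before the start of Nr0b1 and 64 bases before the outer start of Nr5a2, on the strand of the gene in each case, and was in 14.7% of all windows.

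The 36 regions were narrower than the list as a whole, with a median of 203.5 bp (quartiles of 131.5 and 323.25 bp). The median of all regions was 281 bp, and their quartiles were 152 and 498 bp. The medians were 203.5 bp for Esrrb, 182 bp for Nr5a2 and 305 bp for Nr0b1. Of the 36, 5 (13.9%) were 500 bp or wider, against 24.9% of all regions. These were the regions of 779 and 534 bp in Esrrb, of 983 and 536 bp at Nr5a2 and of 528 bp in Nr0b1, so that each gene had at least 1 of them.

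Among the 49 nuclear receptor genes, Esrrb had the most regions touching the gene. Rarb, a retinoic acid receptor gene of 651 kb, followed with 15, then Rara and Esr1, which encodes an estrogen receptor, with 9 each, and Nr4a2, Nr5a2 and Rora with 7 each. Nr0b1, with 4, ranked 12th together with 3 others, yet had the most regions per length of gene, 95.9 per 100 kb. By that measure Esrrb ranked 14th, with 9.97, and Nr5a2 20th, with 5.94. Without the 3 genes, the median of the other 46 was 2.5 regions, in genes of a median length of 46.8 kb. Protein-coding genes in general had a median of 1 region and a median length of 17.2 kb.

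An outer end was marked by a region in 35 of the 49 nuclear receptor genes (71.4%) and in 62.0% of all protein-coding genes. Another 11 (22.4%) had regions in the gene only away from the ends, against 11.6%, and the nuclear receptor genes were longer. Without Esrrb, Nr5a2 and Nr0b1, the shares of the other 46 were 73.9% and 19.6%. These 11 were Esrrb, Nr5a2, Rarb, Esr1, Rara, Hnf4a, Nr1h4, Nr3c1, Nr1i2, Nr2e3 and Nr2f2, of which Hnf4a, Nr1h4, Nr3c1, Nr1i2 and Nr2e3 were named after their values were seen. As at Nr5a2, a region lay within 1 kb of a listed start inside the gene at Rara and Rarb. As at Esrrb, none did at Esr1, Hnf4a, Nr1h4, Nr1i2, Nr2e3 and Nr2f2. Nr3c1 has no entry among the listed starts.

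The closest relatives differed from the 3 genes in whether an outer end had a region. Esrrg, the estrogen related receptor gamma gene, is 606 kb long and had 6 regions in the gene, with a region at its outer start. Of its 4 listed starts, 2 had a region within 1 kb. The window of its last listed start lay wholly in a region, as did that of the inner start of Nr5a2. Esrra, the alpha gene, is 11.1 kb long and had 1 region touching it, with regions at both ends. Nr5a1, which encodes SF-1, the receptor of adrenal and gonadal cells, had 1 region touching the gene, and a region at an end. Nr0b2, the other receptor gene without a DNA-binding domain, had none in the gene or at its ends, although 16 lay in its extended window. In regions per 100 kb of the extended window, the nuclear receptor genes nearest to Esrrb (4.99) were Nr5a1 (4.96) and Nr4a2 (5.07). Near to Nr5a2 (4.09) was Nr2f2 (4.19), and those nearest to Nr0b1 (2.45) were Rarb (2.47) and Nr2c2 (2.49). The comparison is over 49 genes in a single list of regions.

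**Figure D5:**
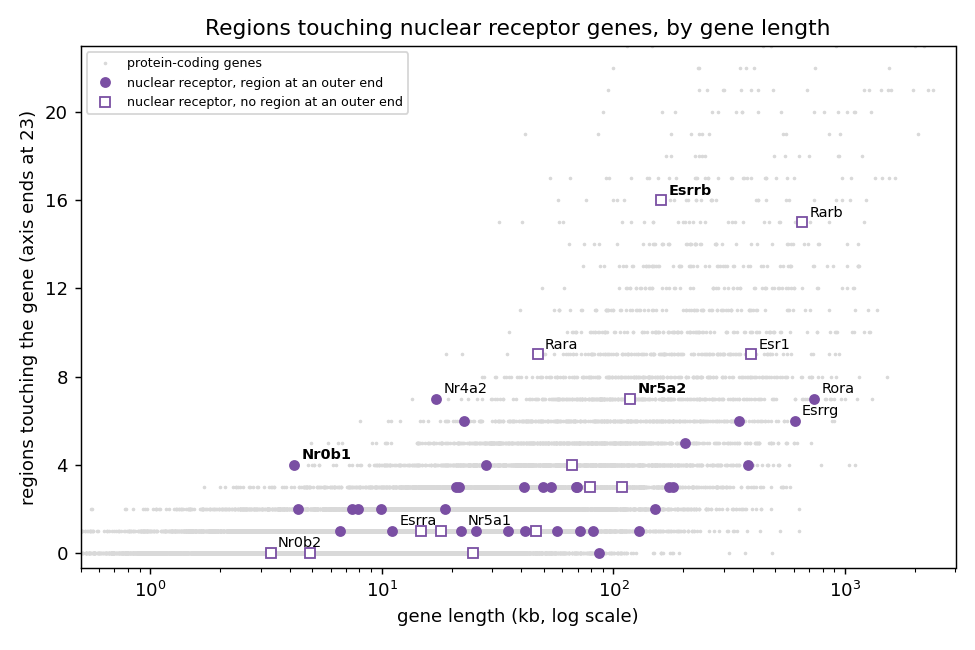
Number of regions touching each gene against gene length in kb (log scale) for the 49 nuclear receptor genes (purple; open squares have no region at an outer end) and protein-coding genes (grey dots). The vertical axis is cut, so protein-coding genes with more regions than its top are not shown. Esrrb, with 16, is the highest purple point, and Nr0b1, with 4 in 4.173 kb, has the most per length among the purple points.

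Genes that work with these receptors were described from 2 lists. A region lay at an outer end in all 15 nuclear receptor cofactor genes and in 62.0% of all protein-coding genes, and their median was 19 regions in the extended window, against 11. Ncoa1, which encodes a coactivator of steroid receptors, had 25 regions in its window, and Ncoa3, a coactivator that Esrrb uses in embryonic stem cells, had 24. All 14 pluripotency transcription factor genes had a region at an end as well, beside the same 62.0%, with a median of 16 in the window. Tcf7l1, the repressor upstream of Esrrb, had 41 and Nanog 38. Esrrb, Nr5a2 and Nr0b1, at 18, 13 and 5, were above, above and below the median of 11 of all genes. These counts do not allow for gene length. Per 100 kb the medians were 5.82 for cofactors, 7.62 for pluripotency factors and 4.57 for all protein-coding genes. By this measure Esrrb (4.99) was above the median of all genes, and Nr5a2 (4.09) and Nr0b1 (2.45) were below it.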

How the data were processed

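The authors deposited 1 list of ATAC-seq regions for 8 libraries, with chromosome, start and end in bp and no header or value per library. Per the submitters' processing notes, the tools included MACS2 2.1.1, Bowtie2, cutadapt, bedtools, Picard and SAMtools, on the build GRCm38 (mm10). Settings, any Tn5 shift and how libraries were merged were not stated there. A region found in a single library may thus count like one found in all.

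Starts in the list count from 0 and were converted to count from 1. Gene spans, listed starts and sequences came from RefSeq on GRCm38.p6. All 3 genes had listed starts, as had 17492 of 21887 protein-coding genes, and exons were not used here. Counts were made with Python 3.11.15, numpy 2.4.6 and pandas 2.3.3, and the code was tested on simulated data. Tests between groups, planned in case of values per library, were not made. No other test was run, and shares over other genes are descriptions. The members and gene lists were chosen with earlier results of these data known. Named nuclear receptors are the closest relatives, the 5 with the most regions in the gene, taken with ties, and the 2 nearest in density to each member. From the other lists the 2 genes with the most regions in the window are named, and Ncoa3 was added after its values were seen. Of the genes these rules name, 2 are not reported here. Vash1, Ptprc and Zfp281 are the next genes outside the windows.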

Additional observations from a re-analysis of the deposited data

How the results depend on the processing

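No paired analysis was possible because the list holds no value per library, and leaving out replicates was not possible for the same reason. Of 87 alternatives, 62 stayed within 1.5 times the value reported or, for a share of comparison genes, within its 95% Wilson interval, and 25 did not. Some of the 62 could not have differed. Motifs absent from the 5 start windows were counted again in parts of them, and TTCNNNGAA reads the same on both strands. Counts of 0 at outer ends were repeated within 500 bp and with regions of at least 150 bp alone. Extensions of 50 and 200 kb gave Nr5a2 8 and 26 regions, and 200 kb gave Nr0b1 9. With regions of at least 150 bp alone, 4 touched Nr5a2. Joining gaps of 5 kb gave 10 groups for Esrrb and 2 for Nr0b1, and joining 25 kb gave 4 for Nr5a2. On the strand of the gene alone, TATAAA was in 1 of the 5 start windows.

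The share of comparison genes with a lower density (70.9% for Esrrb, 51.3% for Nr5a2 and 19.1% for Nr0b1) depended most on the span. For the gene alone it was 96.5, 79.9 and 99.7% in that order, for 50 kb 86.2, 46.7 and 40.8%, and for 200 kb 67.5, 70.2 and 15.4%. Against all protein-coding genes it was 55.2, 44.2 and 23.6%, and against the same chromosome 57.1, 57.5 and 55.5%. By bp covered it was 47.2% for Esrrb and 29.0% for Nr5a2. The cause of these shifts was not tested. The absence of regions at the outer ends of Esrrb and Nr5a2 held within 2 kb. Within 500 bp it follows from the absence within 1 kb. Windows of like CpG ratio, all listed starts and AGGTCA were added after seeing the data. The depth is unknown, so a stretch without a region is one where none was called.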

Other observations

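Beyond the 100 kb limit, the regions around Nr5a2 were uneven. Between 100 and 200 kb, 11 lay behind the gene, toward Zfp281, which encodes a zinc finger factor of pluripotent cells and lies 212 kb away, and 2 lay in front of it. For Esrrb the same belt held 4 regions on each side. The nearest of those before the gene, 119 kb away, touched Gpatch2l. For Nr0b1 the belt held 3 in front and 1 behind.

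The median gap between neighbouring regions inside the gene was 0.292 kb in Nr0b1, 1.75 kb in Nr5a2 and 3.90 kb in Esrrb, against 13.5 kb over the whole list. The comparison is uneven, because a gap inside a gene cannot exceed the gene length, 4.173 kb for Nr0b1. Gaps over the whole list have no such limit. In Nr5a2 the gaps ranged from 205 bp at the inner start to 77.1 kb.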
